A study of Homo sapiens with 12 samples.

Results

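RNA of Cal27, a line of human oral squamous carcinoma cells from the tongue, was compared between the 4 libraries numbered replicate 1 and the 4 libraries numbered replicate 3, paired by culture condition. The libraries were chosen by the replicate number in the sample labels, and they make up 8 of the 12 libraries of the series. The series deals with mechanical memory, that is, with what cells carry over from the surface on which they were conditioned. All cells are given as epithelial and of wild-type genotype, and all were grown for 5 days of conditioning and for 1 further day after replating on soft collagen-coated gels of 0.48 kPa. Both sets hold the same 4 conditions, with 1 library each. In soft-to-soft cultures the conditioning gel was soft as well, and in stiff-to-soft cultures it was a stiff gel of 20 kPa. In LPA-to-soft cultures, lysophosphatidic acid (LPA) was present during conditioning on a soft gel. LPA-to-FAKi cultures had the same LPA conditioning, and the replating medium held an inhibitor of focal adhesion kinase (FAK), whose name and dose are not in the labels. The labels do not say what a shared replicate number stands for, nor whether the replicates were separate cultures, so the p-values below measure only the difference between these sets of libraries against the spread between them, which may be technical.

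Squamous epithelial cells keep a basal state marked by TP63, KRT5 and KRT14, or move to suprabasal states in which they make other keratins, transglutaminases and the precursor proteins of the cornified envelope, many of which are encoded side by side in the epidermal differentiation complex on chromosome 1. Interferons signal through JAK kinases to a transcription factor complex that holds IRF9 and binds interferon-stimulated response elements and turns on antiviral effectors such as the IFIT, OAS and MX proteins. Dividing cells switch on MCM helicase and polymerase genes in S phase, and cyclin B and mitotic kinesins in G2 and M phase.

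The deposited values were read counts per gene, with totals of 73018393 to 107080066 in replicate 1 libraries and 83122251 to 121070917 in replicate 3 libraries. The soft-to-soft replicate 1 library stood apart in its low counts, since 42.9% of its counts from 1 to 19 were even numbers, against 96.8% to 97.8% in the other libraries of the comparison. With the counts halved in the libraries whose low counts were nearly all even, 2881 genes were higher and 2801 lower in the comparison below. Of 12 epithelial markers all were detected in every library of the comparison, with CDH1 at 259 to 319 CPM (read counts scaled to the library's size) in replicate 1 and 259.8 to 356 CPM in replicate 3. Of markers of other cell types, some were at or near 0 and some were present. PTPRC of leukocytes reached at most 0.0545 CPM in replicate 1 and 0.0167 CPM in replicate 3, PECAM1 of endothelium 0.0182 and 0.0394 CPM, and DCN of fibroblasts 0.0402 and 0.0667 CPM, and POSTN, EMCN, CD3E, MS4A1, TYROBP, CD2, MLANA, TYR, DCT and S100B had no count in any of the 8 libraries. The endothelial cadherin CDH5 was at 4.40 to 11.1 CPM in replicate 1 and 14.3 to 24.7 CPM in replicate 3, and the leukocyte marker LCP1 was at 9.45 to 12.7 CPM in replicate 1 and 14.8 to 21.9 CPM in replicate 3. Other markers of these cell types ran the opposite way. ERG of endothelium was at 2.37 to 2.65 and 0.67 to 1.61 CPM, and CD14 of leukocytes at 4.10 to 5.44 and 2.72 to 3.53 CPM, in the same order. CD68, of macrophages, averaged 19.8 ± 14.8 CPM in replicate 1 and 11.5 ± 2.39 CPM in replicate 3 (SD, n = 4 each).

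Gene expression differed widely between the sets. Of 14976 genes tested, 5658 were called (37.8%) at an adjusted p under 0.05 by edgeR's quasi-likelihood test with Benjamini-Hochberg adjustment, 2806 of them higher in replicate 1 than in replicate 3 (18.7%) and 2852 lower (19%). Differences of more than 2-fold were mostly upward, with 916 genes higher (6.12%) and 177 lower (1.18%). Among genes with at least 1 CPM in 4 libraries, 553 were over 2-fold higher and 121 lower. The sets of 4 libraries lay entirely apart for 2463 genes on the higher side (16.4%) and 2663 on the lower side (17.8%). The median size of a called change was 0.59 on the log2 scale for higher genes and 0.35 for lower genes, and the median over all genes tested was 0.01. The sign was the same in all 4 condition pairs for 2721 of the higher and 2818 of the lower genes. Without the soft-to-soft pair, 1851 genes were higher and 1856 lower. With an offset for transcript length and GC content the split of the calls moved to 1866 higher and 3649 lower (33.8% higher, against 49.6% in the main analysis), with a median over all genes of -0.08. This offset also re-centred each library on its mean log2 CPM over genes, and the part of length and GC content alone was not tested.

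Low-expressed genes lay on the higher side more often than strongly expressed genes. Among 13882 genes with a known length and GC content, in the third with the lowest mean level, 982 were higher and 265 lower, and in the third with the highest level, 743 were higher and 1525 lower. Spearman's rho across genes between fold change and mean level was -0.27, against 0.06 with transcript length and 0.09 with GC content, as a description over genes that share libraries. In all, 553 genes passed the count minimum in every replicate 1 library and not in every replicate 3 library, and 208 the other way round, and a gene that passed through replicate 1 alone had to be high there.

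**Figure D1:**
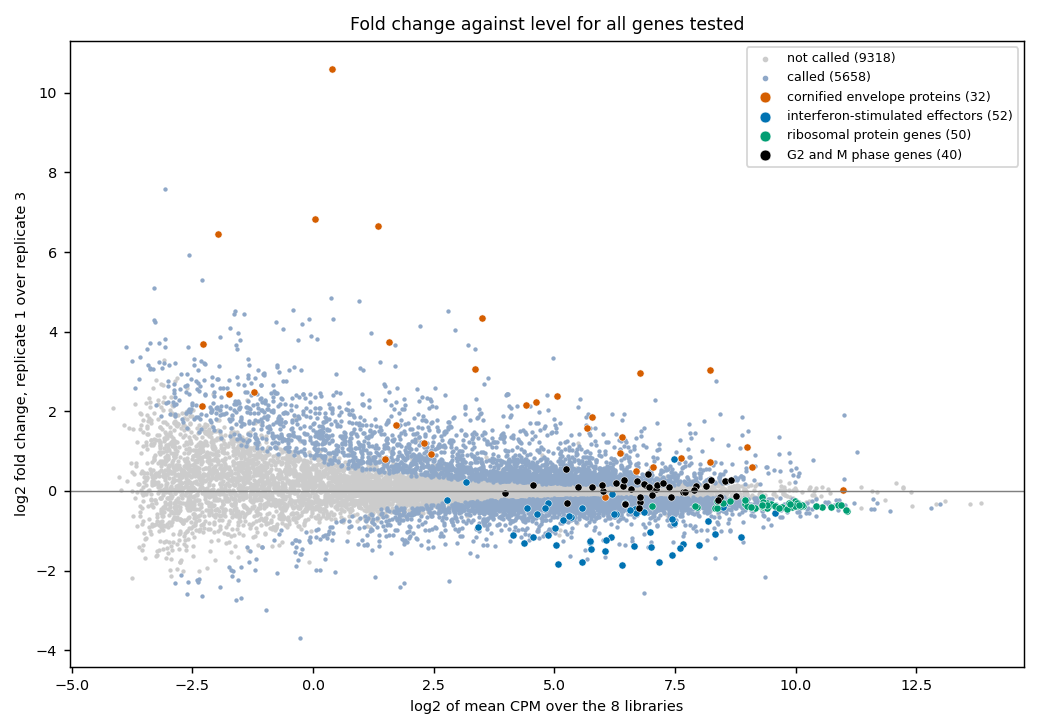
Log2 fold change, replicate 1 over replicate 3, against the log2 of the mean CPM of the 8 libraries, for 14976 genes. Points in pale blue are called genes, and coloured points mark cornified envelope proteins (32), interferon-stimulated effectors (52), ribosomal protein genes (50) and G2 and M phase genes (40). The cornified envelope genes lie mostly above 0, the interferon effectors and ribosomal protein genes below it, and the G2 and M phase genes around it. The highest point is LCE3E, with no count in replicate 3, whose plotted value depends on the prior count of the edgeR fit.

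Replicate number went with more of the variation than condition did. In log2 CPM over all genes tested, 47.8% of the sums of squares within the 8 libraries went with replicate number (1 degree of freedom), 30.5% with condition (3 degrees of freedom) and 21.6% with neither (3 degrees of freedom). In the same fit no gene differed among the 4 conditions at an adjusted p under 0.05 by edgeR's quasi-likelihood test, and 1972 genes did so at an unadjusted p under 0.05 (13.2%). DESeq2's likelihood ratio test called 888 genes for condition in the same libraries, and edgeR on all 12 libraries called 33. The sets also differed within each condition: the median over cornified envelope proteins of the pair difference in log2 CPM was 1.68 in soft-to-soft, 1.76 in stiff-to-soft, 1.52 in LPA-to-soft and 2.45 in LPA-to-FAKi cultures.

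Cornified envelope proteins, which are cross-linked beneath the membrane of terminally differentiating squamous cells, were higher in replicate 1 with few exceptions. Of 44 genes on the list, 32 passed the filter, 30 were higher (against 18.7% of all genes tested) and 1 was lower, with a median log2 fold change of 2.00. In 25 of the 32 every replicate 1 library lay above every replicate 3 library (16.4% over all genes). The 32 included 7 genes that passed the count minimum in replicate 1 alone, which favours such a gap. Without the soft-to-soft pair, 25 were higher, none was lower and the median was 1.96. Of the 24 that passed the count minimum in both sets, 22 were higher and 1 lower, with a median of 1.29. The 12 genes not tested included LOR and FLG, the major proteins of the epidermal envelope and its filaments, and LOR had no count in any of the 8 libraries. In bulk RNA, more cells of a differentiated state and more of this RNA per cell cannot be told apart.

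The promoters of RPTN and SBSN, members with large differences, are shown for their match to AP-1, a dimer of FOS and JUN proteins that binds many keratinocyte genes. The letters TGANTCA, searched on both strands of the 250 bases before the RefSeq start, occurred in 13 of the 23 higher cornified envelope genes with a promoter in the table (56.5%) and in neither of the other 2 tested, against 6.57% of all 35116 promoters and 4.43% of the 11592 promoters of genes tested. Capitals mark the matches in RPTN (chr1:152159229-152159478, minus strand) and SBSN (chr19:35528312-35528561, minus strand), on build GRCh38.p14, 5′ to 3′ on the gene's strand.
RPTN: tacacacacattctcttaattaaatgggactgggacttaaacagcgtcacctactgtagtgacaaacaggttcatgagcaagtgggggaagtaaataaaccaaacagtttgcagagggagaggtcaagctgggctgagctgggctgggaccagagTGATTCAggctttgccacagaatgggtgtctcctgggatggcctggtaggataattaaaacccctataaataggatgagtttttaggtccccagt
SBSN: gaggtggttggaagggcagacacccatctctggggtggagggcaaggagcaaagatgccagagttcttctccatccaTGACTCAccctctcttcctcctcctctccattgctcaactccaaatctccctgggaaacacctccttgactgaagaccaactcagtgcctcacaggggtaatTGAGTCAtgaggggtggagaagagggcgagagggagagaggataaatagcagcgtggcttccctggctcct
A match is a run of letters, and binding at these places was not measured.

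Involucrin (IVL), an early scaffold of the envelope, stood at 47.4, 29.8, 35.5 and 48.0 CPM in replicate 1 cultures conditioned on soft gel, on stiff gel, with LPA, and with LPA before the FAK inhibitor, against 11.4, 6.44, 8.12 and 8.60 CPM in replicate 3. Every replicate 1 library lay above every replicate 3 library, and the log2 fold change was 2.22 ± 0.0863 (SE, adjusted p = 1.04e-05). Repetin (RPTN), a fused-type S100 protein of the envelope, had 20.3, 23.3, 9.40 and 33.8 CPM in replicate 1, in the same order of conditions, against 0.909, 0.887, 1.37 and 0.730 CPM in replicate 3. Its sets lay far apart, with a log2 fold change of 4.33 ± 0.391 (adjusted p = 0.000197). Suprabasin (SBSN), a secreted protein of suprabasal layers, averaged 5.50 ± 1.65 CPM in replicate 1 and 0.421 ± 0.218 CPM in replicate 3 (SD, n = 4 each), a log2 fold change of 3.74 (adjusted p = 0.000233).

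The LPA-to-FAKi library of replicate 1 held the highest level of many late envelope genes. SPRR3, a small proline-rich protein of oral epithelium, stood at 11.8, 8.87, 6.62 and 47.1 CPM in replicate 1, against 1.92, 0.788, 1.43 and 3.22 CPM in replicate 3, with a log2 fold change of 3.06 ± 0.264 (adjusted p = 0.000167). LCE3D, a late cornified envelope protein, had 0.442, 0.163, 0.236 and 19.3 CPM in replicate 1, against 0.0175, 0.0197, 0 and 0.101 CPM in replicate 3, with a log2 fold change of 6.66 ± 0.631 (adjusted p = 0.000251). Its sets did not overlap, and nearly all of the replicate 1 signal came from the LPA-to-FAKi library. LCE3D passed the count minimum in every replicate 1 library and not in every replicate 3 library, so it was tested through the set where it was high. Without the LPA-to-FAKi library of replicate 1, its log2 fold change was 4.41. Its neighbour LCE3E had 837 counts in replicate 1, of which 784 were in the LPA-to-FAKi library, and none in replicate 3, so it was at least 332-fold higher against a floor of 3 counts over the replicate 3 set. The pair SPRR1A and SPRR1B, singled out after their values were seen, averaged 198 ± 158 and 541 ± 371 CPM in replicate 1, against 22.6 ± 9.96 and 59.3 ± 18.5 CPM in replicate 3 (SD, n = 4 each). Genes of the SPRR, LCE and KRT6 families have near-identical copies, so reads could be split between them.

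The calcium-binding S100 alarmins did not follow the precursors in every pair. S100A8 was at 772, 724, 793 and 384 CPM in replicate 1, against 474, 446, 371 and 420.2 CPM in replicate 3, and its partner S100A9 at 2339, 2165, 2498 and 1275 CPM, against 2172, 2209, 1693 and 1879 CPM. The LPA-to-FAKi library was the lowest of replicate 1 for both, and the sets overlapped. S100A8 was higher by 0.60 ± 0.167 (adjusted p = 0.0232), a call lost with DESeq2 and without any of the 6 libraries other than those of LPA-to-FAKi cultures, and S100A9 differed by 0.03 ± 0.151 (adjusted p = 0.9). DMKN, dermokine, was the member called lower, by -0.16 ± 0.0529 (adjusted p = 0.0472).

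**Figure D2:**
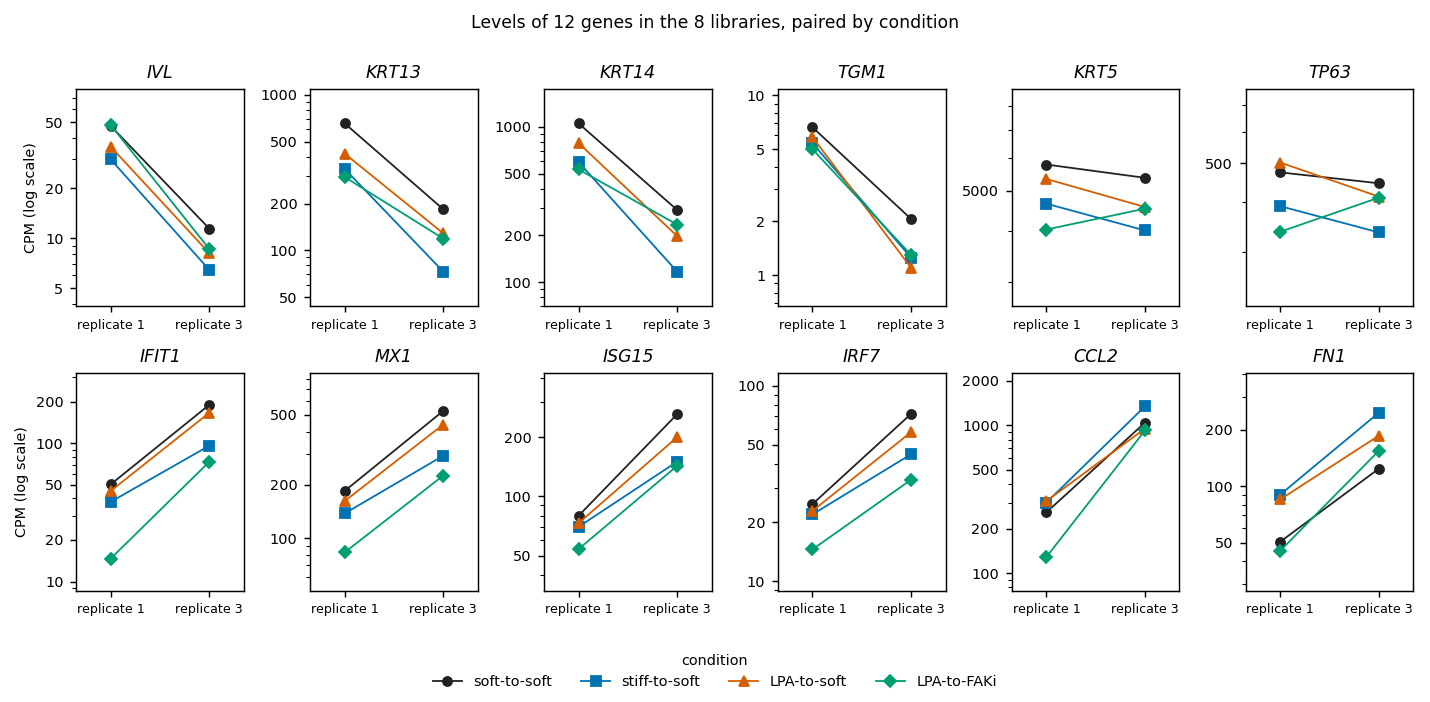
CPM on a log scale of 12 genes in replicate 1 libraries (left) and replicate 3 libraries (right), with a line joining the libraries of a condition. IVL, KRT13, KRT14 and TGM1 are higher in replicate 1 in every pair, IFIT1, MX1, ISG15, IRF7, CCL2 and FN1 are lower in every pair, and KRT5 and TP63 cross between pairs.

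Enzymes that cross-link the envelope and make barrier lipids were higher or did not pass the test. Of 24 genes, 18 were tested, 10 were higher (55.6%, against 18.7% of all genes tested) and none lower, with a median of 1.20. Of the 14 that passed the count minimum in both sets, 9 were higher. Transglutaminase 1 (TGM1), which forms the cross-links, had 6.64, 5.42, 5.85 and 5.01 CPM in replicate 1, against 2.05, 1.25, 1.10 and 1.30 CPM in replicate 3. Its sets did not overlap, and its log2 fold change was 2.05 ± 0.162 (adjusted p = 0.000115). SULT2B1, which makes cholesterol sulfate, averaged 17.2 ± 12.5 CPM in replicate 1 and 1.16 ± 0.316 CPM in replicate 3, and the retinol dehydrogenase DHRS9 averaged 14.7 ± 16.5 and 0.639 ± 0.191 CPM (SD, n = 4 each). The LPA-to-FAKi library was the highest of replicate 1 for both, at 35.4 CPM for SULT2B1 and 39.3 CPM for DHRS9.

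Squamous proteases and their inhibitors showed the same direction, with 26 of 30 tested genes higher (86.7%, against 18.7% of all genes) and none lower, and a median of 1.58. Of these, 4 passed the count minimum in replicate 1 alone, and of the 26 that passed in both sets 22 were higher, with a median of 1.44. Kallikrein 11 (KLK11) had 29.3, 19.1, 17.9 and 20.1 CPM in replicate 1, against 4.37, 1.85, 3.25 and 2.81 CPM in replicate 3, with a log2 fold change of 2.85 ± 0.145 (adjusted p = 2.38e-05). Elafin (PI3) and SLPI, both inhibitors of neutrophil elastase, averaged 543 ± 47.9 and 623 ± 70.9 CPM in replicate 1, against 145 ± 33.2 and 295 ± 14.0 CPM in replicate 3. The trypsinogen PRSS3 was among the strongest differences of all, by 4.16 ± 0.173 (adjusted p = 1.34e-05). The protease inhibitor A2ML1 differed by 3.14 ± 0.665 (adjusted p = 0.00767), with 17.5 CPM in the LPA-to-FAKi library and 1.82 to 2.58 CPM in the other libraries of replicate 1.

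Keratins of suprabasal layers were higher in replicate 1 in 8 of 10 tested genes (80%, against 18.7% of all genes tested) and lower in none, with a median of 1.80. KRT13, the major suprabasal keratin of oral mucosa, stood at 656, 334, 419 and 296 CPM in replicate 1, against 184, 73.1, 129 and 119 CPM in replicate 3. All replicate 1 libraries lay above all of replicate 3, by 1.77 ± 0.125 (adjusted p = 7.51e-05). KRT4, its partner, had 189, 66.6, 68.2 and 9.93 CPM in replicate 1, against 29.8, 8.45, 23.3 and 10.2 CPM in replicate 3, and KRT1 of the epidermis had 114, 38.8, 45.5 and 3.91 CPM, against 12.3, 5.08, 8.49 and 2.74 CPM. Both overlapped because the LPA-to-FAKi library of replicate 1 was low, opposite to its high SPRR3 and LCE3D. KRT1 was higher by 2.41 ± 0.379 (adjusted p = 0.00214) and KRT4 by 1.86 ± 0.441 (adjusted p = 0.0124). KRT10, the partner of KRT1, was higher by 0.49 ± 0.162 (adjusted p = 0.0441), and that call was lost without a condition block and without any of the 6 libraries other than those of LPA-to-FAKi cultures. Without the soft-to-soft library of replicate 1, KRT10 differed by 0.25 (adjusted p = 0.084).

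Most basal and stress keratins were higher in replicate 1, while KRT5 was not called. KRT14 stood at 1051, 592, 786 and 532 CPM in replicate 1, against 292, 117, 198 and 235 CPM in replicate 3, a log2 fold change of 1.85 ± 0.161 (adjusted p = 0.000172) with no overlap. Its usual partner KRT5 stood at 5782, 4647, 5335 and 4023 CPM in replicate 1, against 5369, 4002, 4562 and 4519 CPM in replicate 3, and differed by 0.10 ± 0.0769 (adjusted p = 0.323). The wound keratins KRT16 and KRT6A were higher by 2.77 ± 0.128 (adjusted p = 1.81e-05) and 1.92 ± 0.119 (adjusted p = 4.57e-05). KRT15, a keratin of basal cells, was higher by 1.41 ± 0.0664 (adjusted p = 2.01e-05). Of 21 basal and stress genes, 18 were higher (85.7%, against 18.7% of all genes tested) and none lower, with a median of 0.82. The simple-epithelium keratins KRT8 and KRT18 went the other way, at -0.70 ± 0.128 (adjusted p = 0.004) and -0.44 ± 0.118 (adjusted p = 0.0208), with overlapping sets.

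Desmosomes, cell junctions that hold keratin filaments, had 8 of 11 tested genes higher (72.7%, against 18.7% of all genes) and none lower, with a median of 0.91. The cadherin DSG3 averaged 159.6 ± 23.9 CPM in replicate 1 and 61.9 ± 10.3 CPM in replicate 3 (SD, n = 4 each), and the plaque protein PKP1 averaged 330.1 ± 87.2 and 122 ± 29.5 CPM. Among 36 tested regulators of squamous fate, 17 were higher (47.2%, against 18.7% of all genes), 1 was lower (2.78%, against 19%) and 18 did not pass the test. TP63, the master regulator of stratified epithelia, stood at 475, 391, 503 and 338 CPM in replicate 1, against 446, 336, 413 and 411 CPM in replicate 3, a difference of 0.09 ± 0.0914 (adjusted p = 0.493). NOTCH1, which promotes the suprabasal switch, differed by 0.18 ± 0.147 (adjusted p = 0.365). Without the LPA-to-FAKi library of replicate 1, TP63 differed by 0.20 (adjusted p = 0.0345) and NOTCH1 by 0.40 (adjusted p = 0.00151).

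Other regulators of differentiation were called. MAF, a transcription factor of late epidermal differentiation, had 2.18, 0.560, 4.98 and 2.52 CPM in replicate 1, against 0.157, 0.138, 0.0667 and 0.0504 CPM in replicate 3, with a log2 fold change of 4.33 ± 0.636 (adjusted p = 0.00161). MAF passed the count minimum in every replicate 1 library and not in every replicate 3 library, so it was tested through the set where it was high. Its counts came to 971 in replicate 1 and 44 in replicate 3. GRHL3, which activates TGM1 and other barrier genes, averaged 17.8 ± 5.70 CPM in replicate 1 and 5.04 ± 0.583 CPM in replicate 3 (adjusted p = 0.000546). PRDM1 was higher by 1.18 ± 0.168 (adjusted p = 0.00143) and the NOTCH target HEY1 by 1.45 ± 0.194 (adjusted p = 0.0011). HES1, another NOTCH target, was the member called lower, by -0.48 ± 0.106 (adjusted p = 0.00893).

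The largest differences outside these lists included genes of squamous and secretory epithelia. CLCA4, a gene of the chloride channel accessory family, had 22.3, 15.5, 12.7 and 2.47 CPM in replicate 1, against 1.24, 0.335, 0.492 and 0.252 CPM in replicate 3, a log2 fold change of 4.51 ± 0.292 (adjusted p = 5.33e-05). ATP12A, a proton pump subunit, differed by 3.56 ± 0.493 (adjusted p = 0.00126), and the adhesion protein CEACAM6 by 3.33 ± 0.246 (adjusted p = 8.55e-05). For all 3 genes every replicate 1 library lay above every replicate 3 library. CLCA4 and ATP12A were lowest in the LPA-to-FAKi library of replicate 1, at 2.47 and 4.45 CPM, and CEACAM6 was highest there, at 144 CPM.

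Positions along the chromosomes were compared in windows of at least 50 tested genes in order. Medians over whole chromosomes lay between -0.05 and 0.06, and of 279 windows, 4 had a median over 0.3 in size. The highest, at 0.64, ran from THEM4 to RPS27 on chromosome 1 and holds the epidermal differentiation complex. Within that complex, from S100A10 to S100A1, 26 of 35 tested genes were higher (18.7% over all genes) and none lower, with a median of 1.22. Of the 27 that passed the count minimum in both sets, 20 were higher, with a median of 0.92. The other 3 ran from NR1D1 to DNAJC7 on chromosome 17, which holds a keratin cluster (median 0.39), from WASH7P to TMEM52 on chromosome 1 (0.37) and from HIST1H3A to HIST1H2BN on chromosome 6, which holds histone genes (0.37).

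**Figure D3:**
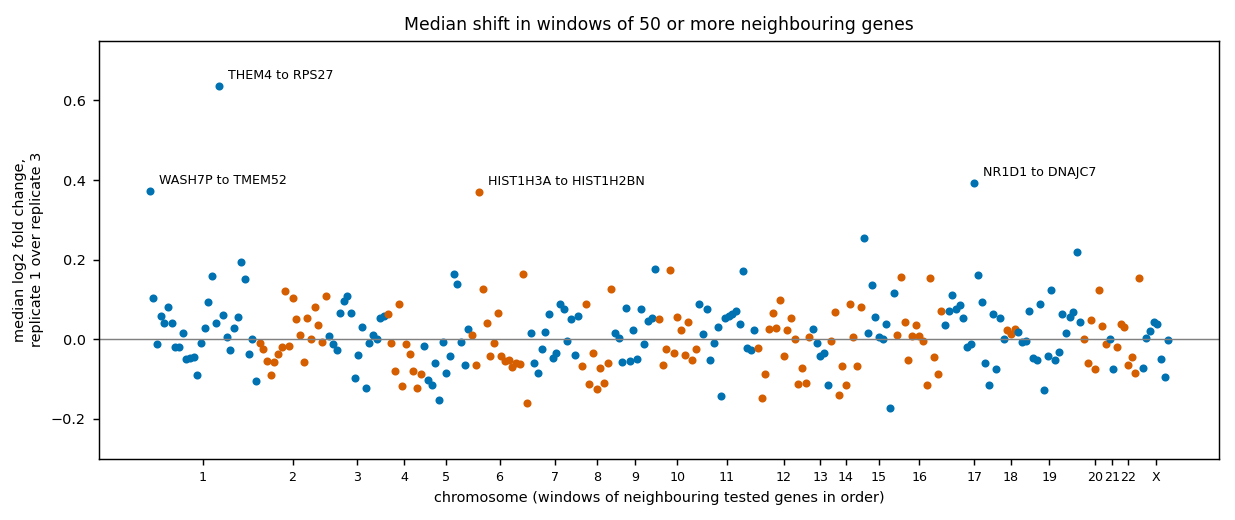
Median log2 fold change, replicate 1 over replicate 3, in 279 windows of neighbouring tested genes, ordered along chromosomes 1 to 22 and X, with colours alternating between chromosomes. The named windows are the 4 with a median over 0.3, and the highest, THEM4 to RPS27 at 0.64, holds the epidermal differentiation complex.

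Interferon-stimulated effectors were lower in replicate 1 almost throughout. Of 52 genes, all tested, 48 were lower (against 19% of all genes tested) and 1 was higher, with a median log2 fold change of -0.85. The pair medians were -1.05 in soft-to-soft, -0.61 in stiff-to-soft, -0.89 in LPA-to-soft and -0.82 in LPA-to-FAKi cultures. In 40 of the 52 genes every replicate 1 library lay below every replicate 3 library (17.8% over all genes). The member called higher was SAMD9, an antiviral restriction factor, at 0.81 ± 0.109 (adjusted p = 0.00113).

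The promoters of IFIT1 and IFIT3 are shown because these genes fell among the most and hold the element through which interferons act. The letters GAAA followed by any 2 bases and GAAA, the core of the interferon-stimulated response element, searched on both strands of the 250 bases before the start, occurred in 21 of the 40 lower effector genes with a promoter in the table (52.5%) and in 25 of all 44 tested effectors with one (56.8%), so the 4 that were not lower held it too, against 3.02% of all 35116 promoters and 2.44% of promoters of genes tested. Capitals mark the matches in IFIT1 (chr10:89392373-89392622, plus strand) and IFIT3 (chr10:89327747-89327996, plus strand), from RefSeq on GRCh38.p14, 5′ to 3′ on the gene's strand.
IFIT1: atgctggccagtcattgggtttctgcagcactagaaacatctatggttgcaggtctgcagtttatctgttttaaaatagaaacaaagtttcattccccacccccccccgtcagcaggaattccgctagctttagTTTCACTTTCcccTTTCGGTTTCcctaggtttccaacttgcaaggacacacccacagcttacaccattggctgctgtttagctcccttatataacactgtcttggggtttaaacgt
IFIT3: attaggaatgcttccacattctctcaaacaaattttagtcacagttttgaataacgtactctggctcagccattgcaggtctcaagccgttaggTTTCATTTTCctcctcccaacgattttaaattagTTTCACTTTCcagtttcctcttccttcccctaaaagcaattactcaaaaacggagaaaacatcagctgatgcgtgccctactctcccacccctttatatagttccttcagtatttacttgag
Both promoters hold 2 matches. The binding of any factor was not measured.

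IFIT1, which binds viral RNA, stood at 50.5, 37.7, 45.2 and 14.7 CPM in replicate 1, against 189.8, 96.1, 166 and 73.5 CPM in replicate 3. It was lower in each pair, by -1.85 ± 0.135 (adjusted p = 7.98e-05), and the LPA-to-FAKi library was the lowest of each set. MX1, a GTPase that blocks influenza virus, stood at 185, 138, 162 and 82.9 CPM in replicate 1, against 525, 293, 439.6 and 226 CPM in replicate 3, a log2 fold change of -1.36 ± 0.0765 (adjusted p = 3.62e-05). ISG15, a ubiquitin-like modifier, had 79.8, 70.2, 73.2 and 54.1 CPM in replicate 1, against 261, 150.1, 199.8 and 143 CPM in replicate 3, a log2 fold change of -1.41 ± 0.0904 (adjusted p = 5.06e-05). In all 3 genes the sets did not overlap, and the ranking of the conditions in replicate 3 put soft-to-soft first and LPA-to-FAKi last. IFI44L, OASL and IFIT3 were lower by -1.80, -1.83 and -1.79, with adjusted p of 0.000349, 0.000207 and 5.35e-05.

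The components that sense viral RNA and carry the interferon signal moved less uniformly. Of 30 tested genes, 14 were lower (46.7%, against 19% of all genes), 6 higher (20%, near the 18.7% of all genes) and 10 did not pass, with a median of -0.17. IRF7, the factor that amplifies interferon production, had 24.8, 22.0, 22.9 and 14.5 CPM in replicate 1, against 71.8, 44.6, 57.9 and 33.0 CPM in replicate 3, a log2 fold change of -1.26 ± 0.0878 (adjusted p = 7.22e-05). IRF9, which carries the signal to the response element, averaged 25.3 ± 6.26 CPM in replicate 1 and 56.5 ± 14.1 CPM in replicate 3 (SD, n = 4 each, adjusted p = 7.27e-05). DDX58, the RNA sensor RIG-I, was lower by -0.91 ± 0.103 (adjusted p = 0.000515). Among the interferon genes IFNB1, IFNK, IFNL1, IFNL2 and IFNL3 did not pass the filter. IFNB1 had 0 counts over the replicate 1 libraries and 24 over those of replicate 3, and IFNL1 had 17 and 64. IFNL2 had 0 and 2, IFNL3 had 3 and 2, and IFNK had none. IFNE, an epithelial interferon, was the member with the largest increase, at 2.16, 0.867, 1.73 and 1.40 CPM in replicate 1, against 0.542, 0.709, 0.367 and 0.529 CPM in replicate 3 (log2 fold change 1.49 ± 0.365, adjusted p = 0.0139).

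Genes of antigen presentation on MHC class I were lower in part. Of 20 genes, 14 were lower (70%, against 19% of all genes tested) and none higher, with a median of -0.33. PSMB9, an immunoproteasome subunit, had 58.4, 50.5, 55.2 and 43.7 CPM in replicate 1, against 97.6, 91.7, 88.4 and 93.4 CPM in replicate 3, a log2 fold change of -0.84 ± 0.0758 (adjusted p = 0.000203). The light chain B2M was lower by -0.25 ± 0.0642 (adjusted p = 0.0183) with overlapping sets, a call lost without a condition block and without either soft-to-soft or either stiff-to-soft library. The heavy chain HLA-B stood at 1172, 749.8, 929.9 and 533 CPM in replicate 1, against 927, 838, 841 and 789 CPM in replicate 3, and differed by -0.05 ± 0.132 (adjusted p = 0.783). HLA-C, HLA-E and HLA-F did not pass the test either, and reads of these near-identical genes could be split between them.

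Chemokines and cytokines were lower in many cases. Among 18 interferon-induced chemokines and guanylate-binding proteins, 8 were lower (44.4%, against 19% of all genes tested) and none higher, with a median of -0.32. CCL5, a T cell attractant, had 2.01, 1.48, 1.96 and 0.153 CPM in replicate 1, against 6.93, 5.85, 6.47 and 4.86 CPM in replicate 3 (log2 fold change -2.32 ± 0.432, adjusted p = 0.00435). CXCL10 averaged 12.5 ± 4.18 CPM in replicate 1 and 27.2 ± 5.92 CPM in replicate 3 (adjusted p = 0.000603). Of 34 tested NF-kB and cytokine genes, 17 were lower (50%) and 5 higher (14.7%, against 18.7% of all genes), with a median of -0.39. CCL2, a monocyte attractant, stood at 257, 299.5, 307 and 128 CPM in replicate 1, against 1041, 1342, 949 and 921 CPM in replicate 3, with no overlap and a log2 fold change of -2.15 ± 0.170 (adjusted p = 0.000115). CXCL2, IL6 and TNF were lower by -1.70, -1.64 and -1.21, with adjusted p of 0.00155, 0.000658 and 0.000451. IL36G, an interleukin of differentiated keratinocytes, was higher by 1.39 ± 0.238 (adjusted p = 0.00307), with overlapping sets.

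**Figure D4:**
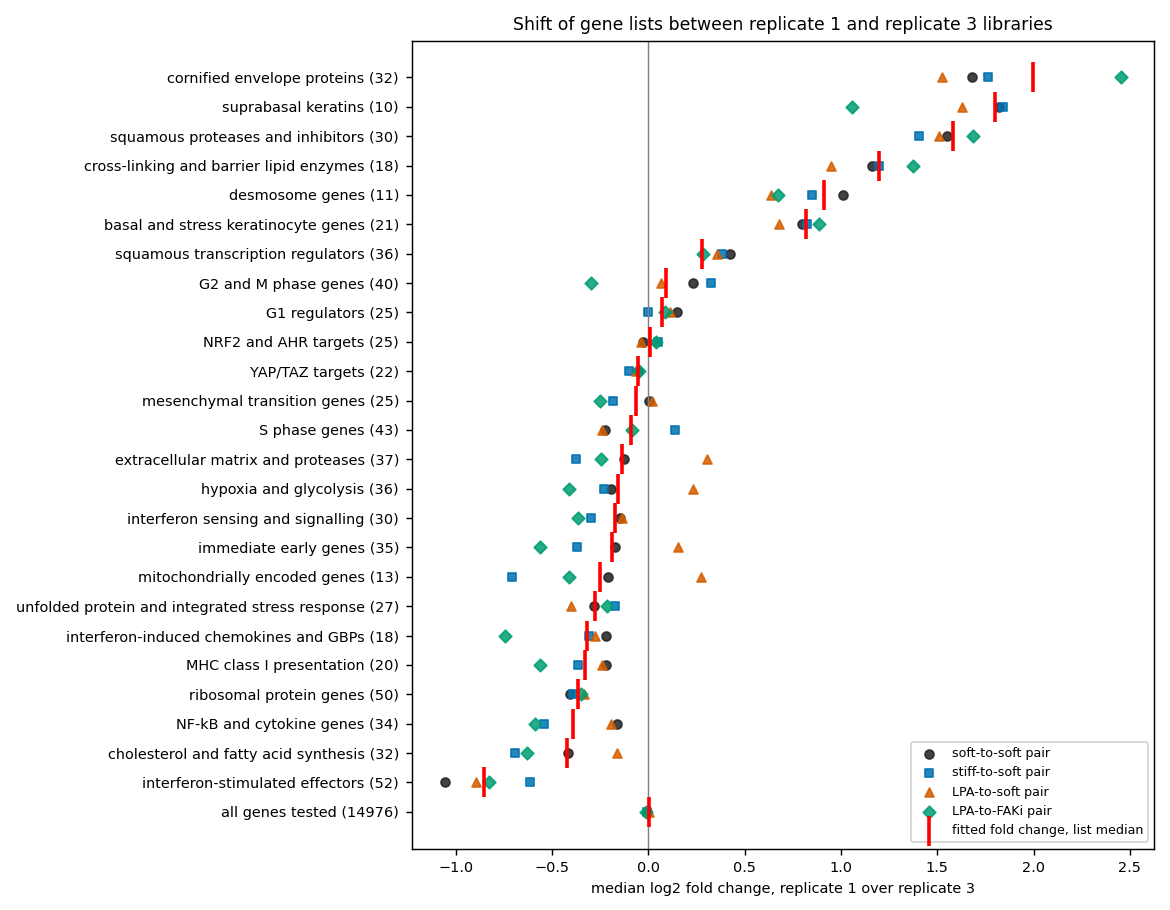
Median over each gene list of the difference in log2 CPM, replicate 1 minus replicate 3, in the 4 condition pairs (symbols) and of the fitted log2 fold change (red bars), with the number of tested genes in brackets. Cornified envelope proteins lie between 1.52 and 2.45, interferon-stimulated effectors between -1.05 and -0.61, and all genes tested near 0. The G2 and M phase, immediate early and hypoxia lists are among those with pair medians on both sides of 0.

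Of 43 S phase genes, 10 were lower (23.3%, near the 19% of all genes), 2 were higher and 31 did not pass the test, with a median of -0.09. GINS2, of the replicative helicase, was lower by -0.56 ± 0.0933 (adjusted p = 0.00268), and MCM2, of the same helicase, stood at 155, 206, 164 and 205 CPM in replicate 1, against 231, 221, 223 and 249 CPM in replicate 3 (log2 fold change -0.34 ± 0.0781, adjusted p = 0.011). The polymerase subunit POLE and the reductase subunit RRM2 were the members called higher, by 0.40 and 0.31, with adjusted p of 0.00406 and 0.0249. Without the soft-to-soft pair, 4 S phase genes were lower and 1 higher, and leaving out 1 library at a time gave 2 to 12 lower genes, with 3 and 2 without the soft-to-soft libraries of replicates 1 and 3 and 5 and 4 without the LPA-to-soft ones.

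Of 40 G2 and M phase genes, 2 were higher (5%, against 18.7% of all genes tested), 2 lower (5%, against 19%) and 36 did not pass, with a median of 0.09. The higher genes were the mitotic kinesins CENPE and KIF23. The lower ones were PTTG1, the securin, and MAD2L1, a spindle checkpoint protein. The pair medians were 0.23 in soft-to-soft, 0.33 in stiff-to-soft, 0.06 in LPA-to-soft and -0.30 in LPA-to-FAKi cultures. MKI67, a marker of cycling cells, stood at 320.2, 425, 369 and 226 CPM in replicate 1, against 251, 286, 294 and 257 CPM in replicate 3, a difference of 0.27 ± 0.111 (adjusted p = 0.0855). Cyclin B1 (CCNB1) stood at 368, 374, 329 and 237 CPM in replicate 1, against 349, 348, 363 and 380.3 CPM in replicate 3, a difference of -0.15 ± 0.123 (adjusted p = 0.368). The LPA-to-FAKi library of replicate 1 was the lowest of all 8 for both genes. Each pair holds 1 library per set, and no gene passed the interaction test with LPA. Without that LPA-to-FAKi library of replicate 1, 22 of the 40 genes were higher and 2 lower, with a median of 0.22, and MKI67 differed by 0.42 (adjusted p = 0.00232). Leaving out the LPA-to-FAKi library of replicate 3 instead gave 22 higher and 2 lower. With condition as a block, leaving out either library removes the LPA-to-FAKi pair from the comparison, so these settings are not separate checks. Over all genes tested, 2806 of 15173 were higher without the LPA-to-FAKi library of replicate 1, and 2833 of 15210 without that of replicate 3.

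**Figure D5:**
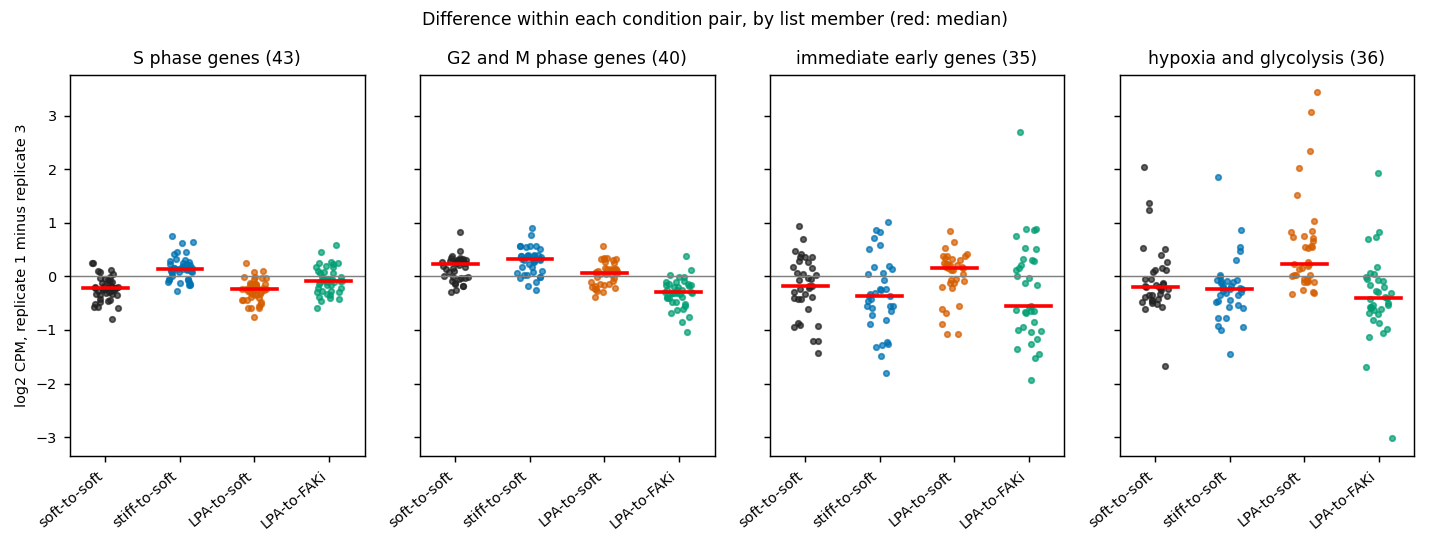
Difference in log2 CPM, replicate 1 minus replicate 3, of each tested member of 4 lists in the 4 condition pairs, with the median in red. The median of the G2 and M phase genes is 0.33 in the stiff-to-soft pair and -0.30 in the LPA-to-FAKi pair, and the medians of the immediate early and hypoxia lists are above 0 in the LPA-to-soft pair alone.

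Regulators of the G1 phase gave 7 higher (28%, against 18.7% of all genes) and 2 lower (8%, against 19%) genes of 25, with a median of 0.07. The kinase inhibitor CDKN1A, which stops the cycle, averaged 189 ± 42.0 CPM in replicate 1 and 125 ± 20.4 CPM in replicate 3, and CDKN2B averaged 36.3 ± 6.50 and 20.9 ± 3.09 CPM (SD, n = 4 each), with adjusted p of 0.000499 and 0.000336. The sets overlapped for CDKN1A and lay apart for CDKN2B. Cyclin D1 (CCND1) had 262, 349, 265 and 548 CPM in replicate 1, against 225, 218, 239.5 and 251 CPM in replicate 3 (log2 fold change 0.55 ± 0.147, adjusted p = 0.0204). Its partner kinase CDK4 was lower by -0.52 ± 0.0588 (adjusted p = 0.000525), and MYC, which drives growth, by -0.62 ± 0.0889 (adjusted p = 0.00144). CCND1 was not called with the length and GC offset, nor without either stiff-to-soft library.

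Whether the shift between the sets differed with LPA was tested as an interaction, with the LPA-to-soft and LPA-to-FAKi pairs against the other 2 pairs. No gene passed at an adjusted p under 0.05 by edgeR's quasi-likelihood test, nor by limma voom, and 320 did at an unadjusted p under 0.05 (2.14%) by edgeR and 327 by limma voom. Of the 40 G2 and M phase genes, 19 were among the 320 genes of edgeR, as were 5 of the 10 tested suprabasal keratins, and of the 52 interferon effectors none was. Without the LPA-to-soft library of replicate 1, the interaction called 188 genes, and without that of replicate 3, 80.

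Cholesterol and fatty acid synthesis was lower as a group. Of 32 genes, all tested, 25 were lower (78.1%, against 19% of all genes tested) and none higher, with a median of -0.42. The smallest pair median was -0.16 in LPA-to-soft cultures. INSIG1, the sterol-regulated brake on SREBP processing, had 50.3, 28.2, 78.9 and 35.5 CPM in replicate 1, against 121, 113, 112 and 110.4 CPM in replicate 3. Its sets lay apart, by -1.34 ± 0.207 (adjusted p = 0.00196), and the LPA-to-soft library was the highest of replicate 1. HMGCS1, an early enzyme of the mevalonate pathway, averaged 83.4 ± 25.4 CPM in replicate 1 and 152 ± 5.38 CPM in replicate 3 (adjusted p = 0.00175), and FASN, fatty acid synthase, averaged 639 ± 99.1 and 997 ± 83.1 CPM (adjusted p = 0.00086). The letters TCACNCCAC of a sterol regulatory element occurred in 1 of the 20 lower genes with a promoter in the table (5%), against 0.883% of all promoters.

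Stress and metal responses held some of the strongest decreases. The metallothionein MT1E, which binds zinc and copper, had 24.9, 47.9, 31.2 and 33.7 CPM in replicate 1, against 196, 205, 179 and 214 CPM in replicate 3, a log2 fold change of -2.55 ± 0.126 (adjusted p = 2.03e-05). MT2A, of the same family, averaged 153 ± 24.9 CPM in replicate 1 and 493 ± 41.3 CPM in replicate 3 (adjusted p = 2.03e-05). Both sets were tight and far apart, though reads of metallothionein copies could be split. GDF15, a stress-induced cytokine, had 28.1, 38.7, 29.3 and 31.3 CPM in replicate 1, against 98.7, 106, 99.1 and 99.1 CPM in replicate 3 (log2 fold change -1.66 ± 0.0705, adjusted p = 1.34e-05). Of 27 genes of the unfolded protein and integrated stress responses, 14 were lower (51.9%, against 19% of all genes) and 4 higher (14.8%, against 18.7%), with a median of -0.28. The lower ones included the endoplasmic reticulum chaperone HSPA5 at -0.52 ± 0.0615 (adjusted p = 0.000651). Of 25 targets of NRF2 and AHR, 6 were higher and 6 lower (24% each, near the shares over all genes), with the aldo-keto reductase AKR1C1 at 2.58 ± 0.278 (adjusted p = 0.000436), whose family members also share reads.

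Of 36 hypoxia and glycolysis genes, 11 were lower (30.6%, against 19% of all genes) and 4 higher (11.1%, against 18.7%), with a median of -0.16. The 4 higher genes were VEGFA, the angiogenic factor, PFKFB4, a regulator of glycolysis, NDRG1 and ANGPTL4, at 0.75, 1.85, 1.41 and 1.47. Lower genes included the enzyme enolase (ENO1), at -0.46 ± 0.0638 (adjusted p = 0.00133), and DDIT4, an inhibitor of mTORC1, at -1.28 ± 0.211 (adjusted p = 0.00257). NDRG1 stood at 60.5, 30.7, 186 and 52.0 CPM in replicate 1, against 23.3, 20.9, 22.0 and 32.2 CPM in replicate 3 (adjusted p = 0.0194). Its LPA-to-soft library of replicate 1 was far above the rest, and the sets overlapped.

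Of 22 targets of YAP and TAZ, the mechanosensitive coactivators, 8 were lower (36.4%, against 19% of all genes) and 4 higher (18.2%, against 18.7%), with a median of -0.05. ANKRD1 had 0.629, 1.01, 1.32 and 1.15 CPM in replicate 1, against 6.72, 8.25, 6.62 and 2.14 CPM in replicate 3, a log2 fold change of -2.42 ± 0.372 (adjusted p = 0.00193). CTGF and CYR61, the usual reporters of this pathway, averaged 109.8 ± 51.0 and 264 ± 41.5 CPM in replicate 1, against 277 ± 40.4 and 527 ± 44.4 CPM in replicate 3 (SD, n = 4 each), with sets apart and adjusted p of 0.00109 and 0.000313. AMOTL1, of the angiomotin family that binds YAP, was higher by 0.93 ± 0.0651 (adjusted p = 7.34e-05). Its relative AMOT, which is on no list, was lower by -2.26 ± 0.229 (adjusted p = 0.000341). Of 35 immediate early genes, 10 were lower, CTGF and CYR61 among them, (28.6%) and 6 higher (17.1%), with pair medians from -0.56 in LPA-to-FAKi to 0.15 in LPA-to-soft cultures.

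Of 37 tested genes of the extracellular matrix, 9 were higher (24.3%, against 18.7% of all genes) and 10 lower (27%, against 19%), shares near those over all genes. Fibronectin (FN1) stood at 50.6, 90.4, 85.3 and 45.4 CPM in replicate 1, against 124, 248, 187 and 155 CPM in replicate 3, and SPARC, a matrix-binding protein, at 279, 302, 298 and 232 CPM, against 619, 891, 666 and 568 CPM. Neither gene's sets overlapped, at -1.40 ± 0.0981 (adjusted p = 7.27e-05) and -1.28 ± 0.0793 (adjusted p = 4.57e-05). The anchoring fibril collagen COL7A1 was higher by 1.30 ± 0.0795 (adjusted p = 4.42e-05), and the metalloproteinase MMP10 by 2.29 ± 0.149 (adjusted p = 5.41e-05). Among 25 mesenchymal transition genes, 5 were higher (20%) and 7 lower (28%), also near the shares over all genes. Vimentin (VIM) had 6.86, 5.83, 4.62 and 6.72 CPM in replicate 1, against 0.297, 0.670, 0.458 and 0.478 CPM in replicate 3 (log2 fold change 3.67 ± 0.252, adjusted p = 6.8e-05), and N-cadherin (CDH2) was lower by -0.82 ± 0.0847 (adjusted p = 0.000376).

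The makeup of the libraries moved with the replicate number too. Of 50 ribosomal protein genes on the list, 49 were lower (98%, against 19% of all genes tested) and none higher, with a median of -0.37. The wider set of ribosomal protein symbols, with 69 lower and 1 higher of 75 tested, took 4.22% to 4.90% of all counts in replicate 1 and 5.24% to 5.77% in replicate 3. Of 147 tested small nucleolar RNAs, 103 were higher and none lower, with a median of 1.62, and of 50 tested replication-dependent histone genes, 19 were higher and none lower, with a median of 0.64. Over all genes tested, 18.7% were higher and 19% lower. Small nucleolar RNAs together took 0.0137% to 0.0157% of counts in replicate 1 and 0.00475% to 0.00641% in replicate 3. How many of them passed the count minimum in replicate 1 alone was not counted. The nuclear RNAs MALAT1 and NEAT1 averaged 339.5 ± 105 and 1145 ± 176 CPM in replicate 1, against 106 ± 33.2 and 458 ± 133 CPM in replicate 3 (SD, n = 4 each). Their log2 fold changes were 1.69 ± 0.0969 (adjusted p = 3.73e-05) and 1.36 ± 0.166 (adjusted p = 0.000731). These classes moved in the same libraries as the differentiation and interferon genes, and their part in those results was not tested. Of 13 mitochondrially encoded genes, 1 was lower and none higher.

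Markers of other cell types were few among the genes tested. Of these, 1 of 5 fibroblast, 1 of 6 endothelial, 1 of 6 leukocyte and none of 4 melanocyte and neural markers were higher, and 1, 2, 1 and 1 were lower. The summed level of the 12 fibroblast markers was 95.7 to 143 CPM in replicate 1 and 140.0 to 172 CPM in replicate 3, that of 12 endothelial markers 23.2 to 32.6 and 37.2 to 49.0 CPM, and that of 14 leukocyte markers 30.6 to 59.8 and 31.7 to 39.4 CPM. The fibroblast marker called higher was COL1A1, at 24.3 to 30.9 CPM in replicate 1 and 14.1 to 16.7 CPM in replicate 3. The endothelial one was ERG, at 2.37 to 2.65 and 0.67 to 1.61 CPM, and the leukocyte one CD14, at 4.10 to 5.44 and 2.72 to 3.53 CPM. The lower ones included FBLN1, CDH5, EGFL7 and LCP1, at -0.46, -1.39, -0.33 and -0.83. The part of these markers in the results above was not tested.

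The libraries numbered 2 gave a further level on the same scale. The mean log2 CPM over tested cornified envelope proteins ran from 3.87 to 4.85 in replicate 1, from 2.40 to 3.63 in replicate 2 and from 1.93 to 2.32 in replicate 3. That of interferon-stimulated effectors ran from 5.10 to 5.85, from 5.31 to 5.52 and from 6.09 to 6.88 in the same order. Replicate 2 lay between the other sets for envelope genes and within the range of replicate 1 for interferon effectors. Cholesterol and fatty acid genes ran from 5.84 to 6.37 in replicate 1, 5.76 to 6.18 in replicate 2 and 6.53 to 6.58 in replicate 3, and unfolded protein and integrated stress genes from 6.12 to 6.26, from 6.54 to 6.66 and from 6.37 to 6.40. The order of the 3 numbers differed between these gene groups.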

How the data were processed

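Read counts per gene symbol were deposited by the authors for 12 libraries of bulk RNA. STAR, HTSeq, DESeq2, FastQC and cutadapt were used with build hg19, per the submitters' processing notes. Their order, annotation and strand setting were not given in the sources used here, so reads of overlapping and antisense genes cannot be told apart. A second deposited table of log2 normalized values was not used. Of 25382 symbols, 5880 had no count and 28 were date-like symbols (0.178% of counts). No pair of libraries was identical.

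Genes were filtered with filterByExpr by replicate number, leaving 14976, scaled by TMM and tested with the quasi-likelihood test of edgeR 4.0.16 in R 4.3.3, with condition and replicate number as terms and Benjamini-Hochberg adjustment over all genes tested. SE was taken as the size of the log2 fold change divided by the square root of the test's F value. A prior count of 2 was used for log2 CPM, and the fitted fold changes kept edgeR's default prior count. CPM used TMM over all 12 libraries. Replicate numbers were shared across conditions, and the condition test had the number as a block. Alternatives used DESeq2 1.42.0, limma voom 3.58.1, other filters and scalings, an offset for length and GC content, and each library left out. With condition as a term, leaving out 1 library also takes its partner of the same condition out of the comparison of replicates. The procedure was also tested on simulated data.

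Named genes were the 12 largest called differences in each direction with the same sign in 4 of 4 pairs and at least 5 CPM, up to 6 called members and the 3 most abundant members of each of 30 lists, and a set of fixed genes. Genes outside the rule that are named complete a count or a list. The libraries, lists and genes were chosen with earlier results of these data known. Windows and chromosomes were assigned by symbol through RefSeq, and promoters of RefSeq are on GRCh38.p14.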

Additional observations from a re-analysis of the deposited data

Results flagged for a closer look

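In 4 of 108 values looked at, 1 of the 4 libraries of a replicate number lay far from the other 3, with a gap over Dixon's critical share of the range. Chance gives such a gap in about 1 of 20 groups. KRT10 stood at 69.8 CPM in the soft-to-soft library of replicate 1, against 29.9 to 36.3 CPM in the other replicate 1 libraries. NOTCH1 stood at 139 CPM in the LPA-to-FAKi library of replicate 1, against 233.8 to 250.9 CPM in the others. The mean log2 CPM of cholesterol and fatty acid genes was 6.53 in the LPA-to-soft library of replicate 3, against 6.57 to 6.58 in the others. The mean log2 CPM of fibroblast markers was 1.63 in the LPA-to-FAKi library of replicate 3, against 2.16 to 2.24 in the others.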

How the results depend on the processing

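Leaving out 1 library at a time gave 1828 to 2833 higher and 1753 to 2748 lower genes, with 1828 and 1865 without the soft-to-soft library of replicate 1 and 1870 and 1753 without that of replicate 3. Without the soft-to-soft pair the counts were 1851 and 1856, and with the length and GC offset 1866 genes were higher. Requiring 1 CPM in 4 libraries left 553 genes over 2-fold higher. With condition as a block, leaving out 1 library takes its pair out of the comparison of replicates, so the settings for the libraries of a pair nearly coincide. Of 195 called named genes, 165 kept the call in all of these settings, 30 lost it at least once, and none changed sign in any setting. Of all 5325 called genes tested with the length and GC offset, 4424 kept the call and 51 had the opposite sign.

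The replicate numbers name libraries across conditions, and the labels do not say that a number marks a shared batch. With the replicate block, edgeR called 0 genes for condition, and with no replicate block also 0, with 256 at an unadjusted p under 0.05. With the block, DESeq2 called 888 genes and edgeR on all 12 libraries 33. Leaving out 1 library gave 0 to 695 genes for condition, with 695 without the LPA-to-FAKi library of replicate 3 and 23 without that of replicate 1. For the interaction with LPA it gave 0 to 188, with 188 and 80 without the LPA-to-soft libraries of replicates 1 and 3, and 14 and 1 without the LPA-to-FAKi libraries. The cause was not tested.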
